A study of Homo sapiens with 6 samples.

Results

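The genes described here encode the components of the cascade that runs from growth factor receptors through the RAS proteins to the kinases RAF, MEK and ERK. The members were 30 named genes, and the probe sets used were those that the platform annotation assigns to exactly 1 of them. In the deposited table of 41751 probe sets, 77 probe sets met that rule and represented 27 of the 30 genes, out of 18338 genes in all. NRAS, RASA1 and BRAF had no such probe set and are not analysed here. By tier, 5 of 5 adaptors were measured, 7 of 9 genes for RAS and its regulators, 2 of 3 for RAF, 3 of 3 for MEK, 2 of 2 for ERK and 8 of 8 effectors. The rule uses gene names and no measured value, but the members were named with earlier results of these data known.

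The study compared 2 stably transfected Tet-On lines made from HEK293, an established human embryonic kidney cell line. One carried the control vector and the other a vector that expresses myocilin, a secreted protein best known from the eye's trabecular meshwork, and each was measured on 3 Affymetrix HG-U133 Plus 2.0 arrays of total RNA. In a Tet-On line doxycycline switches on the inserted gene. Both lines were grown with serum, hygromycin B and G418, and the protocol given for both names 0.2 or 1 µg/ml doxycycline for 48 h. The dose behind each array is not given in the labels, and only the myocilin arrays have a description that names the drug. Each condition is 1 line, so myocilin, the drug and other differences between the lines cannot be told apart. Whether the 3 arrays of a line stem from separate cultures is not stated, so the p-values speak only to the scatter among these arrays, and that scatter may be technical.

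Growth factor receptors that become phosphorylated bind adaptor proteins, which bring an exchange factor to the membrane, and the exchange factor loads RAS with GTP. RAS bound to GTP activates RAF kinases, RAF phosphorylates MEK, and MEK phosphorylates ERK, which acts on kinases and transcription factors. The signal travels by phosphorylation and nucleotide exchange, and arrays measure only the amounts of the transcripts. The study's title concerns the ERK pathway, and the comparison here asks whether the transcripts of the pathway's own components differed between the lines.

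Values are the deposited ones, read as log2, and the values themselves show that each probe set had been set to a reference level of its own. They show differences between arrays and not levels, so no member's level can be set against another's, no detection call could be made, and the kidney line's identity could not be checked from markers. All 6 arrays had a median of 0, with standard deviations of 0.17 to 0.20 over probe sets. MYOC, the inserted gene, read -8.32 to -6.71 in the control line against 0.20 to 0.24 in the myocilin line, which is the direction the labels give. In bulk RNA, fewer cells with a transcript and less of it per cell cannot be told apart. Differences below are myocilin minus control on the log2 scale, tested with limma and adjusted by the Benjamini-Hochberg method over all 18338 genes or all 41751 probe sets, with calls at an adjusted p under 0.05.

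Transcripts of the cascade's components differed little between the lines. Of the 27 genes measured, 1 rose (GAB2, an adaptor) and 1 fell (SOS1, an exchange factor for RAS), and 25 did not pass the threshold. That is 7.41% of the members, and 15.6% of all genes tested were called, 8.28% higher and 7.35% lower. No member was called without myocilin array 1, when 7 were at an unadjusted p under 0.05 in limma, and 1 was called without control array 2, control array 3, myocilin array 2 or myocilin array 3. Leaving out myocilin array 1 also cut the calls over all 18338 genes, from 2866 to 1613, with 4563 at an unadjusted p under 0.05. Next to the threshold were GRB2, RPS6KA2 and RPS6KA5, with adjusted p = 0.0766, 0.0839 and 0.0879 in the limma fit. The median difference over the members was 0.02, as it was over all genes (0.02), and 14 members lay above 0 and 13 below. The median size without regard to sign was 0.10 for the members and 0.10 for all genes. By tier the median ran from -0.13 for MEK to 0.10 for ERK, with -0.08 for RAS and its regulators, 0.04 for RAF and the effectors and 0.05 for the adaptors. The sign of a tier did not always hold: RAS and its regulators were at 0.06 without control array 2, and without the probe sets whose suffix marks several transcripts ERK was at -0.08 and the adaptors were at -0.02.

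The plot of gene values by array shows how small the steps were. The groups did not overlap for 11 members (40.7%), 6 of them higher and 5 lower in the myocilin line, and 34.9% of all genes showed no overlap. At an unadjusted p under 0.05 there were 9 members (33.3%), against a background of 30%. These shares were near those of all genes.

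**Figure D1:**
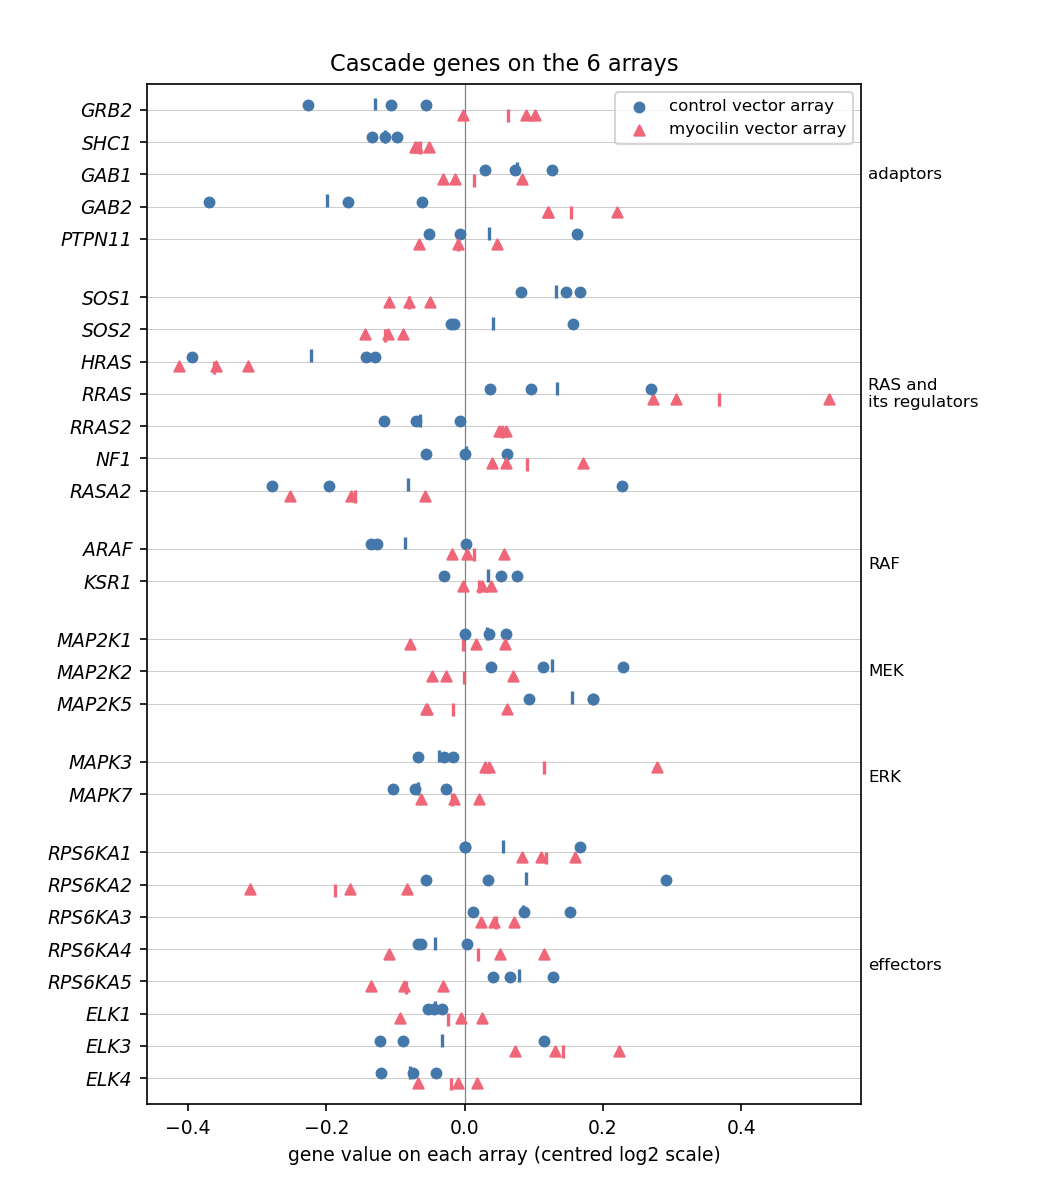
Gene values (mean of a gene's probe sets, centred log2 scale, x axis) of the 27 measured cascade genes on each array, grouped by tier; circles are the 3 control vector arrays, triangles the 3 myocilin vector arrays, and short vertical lines the group means. GAB2 and RRAS2 lie wholly higher and SOS1 and RPS6KA5 wholly lower in the myocilin line, and 16 of the 27 genes overlap.

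The intervals given here bound the mean of a gene's probe sets, and only against the scatter among these arrays. The 95% intervals of the limma fit, which are per gene and not adjusted over genes, had half-widths of 0.12 to 0.27 with a median of 0.14. For 26 of 27 members the interval lay within 0.5 log2 units of 0, and for all 27 within 1 unit, a 2-fold change. The exception at 0.5 was GAB2, whose interval reached 0.54. For 18 members the interval held 0. Differences of 2-fold or more were rare in the whole table, at 59 of 18338 genes, so staying below that size is no trait of the members. Intervals of this kind were not counted over all genes. Some single probe sets reached farther than their gene. The interval of 212912_at of RPS6KA2 ran down to -0.78, that of 212870_at of SOS2 to -0.63 and that of 230337_at of SOS1 to -0.62.

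**Figure D2:**
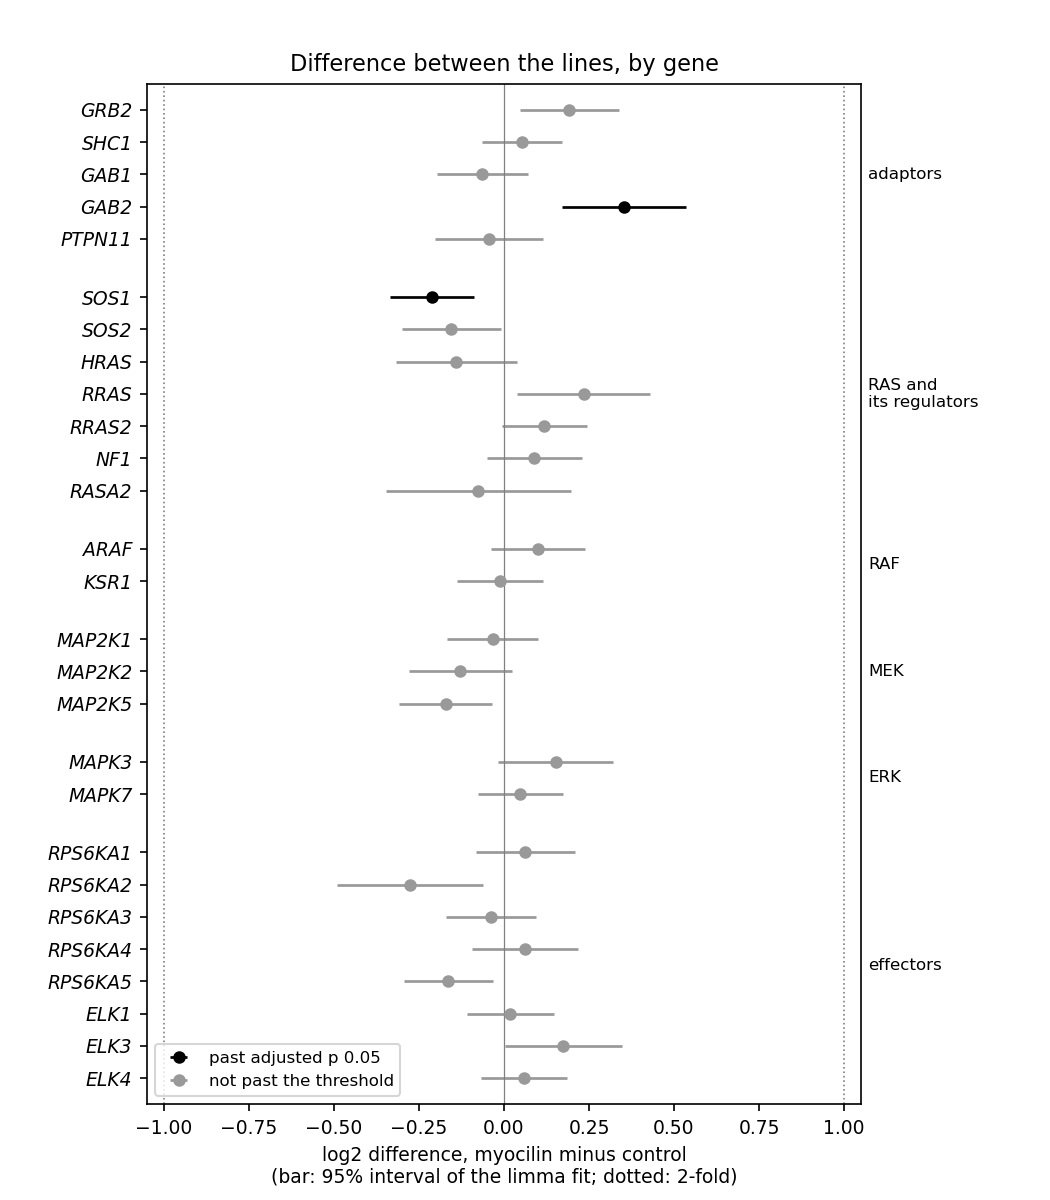
Log2 difference, myocilin minus control (x axis), of each cascade gene with its 95% interval from the limma fit over 3 arrays per line; black marks the genes past adjusted p 0.05 and dotted lines a 2-fold change. GAB2 at 0.35 and SOS1 at -0.21 are the called genes, and no interval reaches a 2-fold change.

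The adaptor tier held the member with the largest difference, GAB2. GAB2 is a scaffold that, once phosphorylated, recruits the phosphatase encoded by PTPN11. It read -0.06, -0.37 and -0.17 in the control line against 0.22, 0.12 and 0.12 in the myocilin line. The myocilin arrays were all above 0 and the control arrays all below it. GAB2 rose by 0.35 ± 0.08 (log2, SE, n = 3 per line), or 1.28-fold (limma adjusted p = 0.0191). It rests on 1 probe set, 203853_s_at, whose suffix marks probes that can match several transcripts. The call was lost without myocilin array 1 (0.32, adjusted p = 0.0736) and held in the other 11 alternatives in which GAB2 was measured. In the probe set fit GAB2 was at adjusted p = 0.0333, and leaving out 1 array gave 0.0283 to 0.1195, past the threshold only without control array 1. The gene lies on chromosome 11 (GRCh38.p14, chr11:78215293-78417820).

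The promoters of the called genes GAB2 and SOS1 are printed to show the sequence at their starts, from RefSeq on GRCh38.p14 and read 5′ to 3′ along the gene, from 250 bases before to 50 after the most upstream start. Capitals mark the GC box GGGCGG or its reverse complement CCGCCC.
GAB2 promoter, chr11:78417771-78418070, minus strand: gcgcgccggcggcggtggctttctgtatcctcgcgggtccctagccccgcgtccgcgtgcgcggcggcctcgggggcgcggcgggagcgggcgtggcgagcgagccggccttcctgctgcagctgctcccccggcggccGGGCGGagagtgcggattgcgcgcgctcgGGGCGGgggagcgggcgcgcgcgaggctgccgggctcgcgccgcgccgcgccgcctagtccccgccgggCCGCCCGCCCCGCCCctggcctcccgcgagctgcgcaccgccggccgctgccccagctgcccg
SOS1 promoter, chr2:39124819-39125118, minus strand: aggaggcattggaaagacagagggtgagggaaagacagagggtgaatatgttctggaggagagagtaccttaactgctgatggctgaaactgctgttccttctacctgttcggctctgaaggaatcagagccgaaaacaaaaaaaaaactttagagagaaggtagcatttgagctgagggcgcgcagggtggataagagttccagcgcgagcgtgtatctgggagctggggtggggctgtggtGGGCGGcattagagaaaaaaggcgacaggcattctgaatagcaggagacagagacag
The GAB2 window held 5 GC boxes, some overlapping, and was 84.0% G and C, while the SOS1 window held 1 and was 51.0% G and C. Both genes have another start in RefSeq, and which start is used in these cells was not measured.

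GRB2 links phosphorylated receptors to the SOS exchange factors. Its gene value was -0.23, -0.11 and -0.06 in the control line against 0.10, 0.00 and 0.09 in the myocilin line, without overlap. The difference was 0.19 ± 0.06 (limma adjusted p = 0.0766), short of the threshold. Its 3 probe sets were unequal. The probe set 215075_s_at rose by 0.37 ± 0.07 (adjusted p = 0.0119), from -0.40, -0.35 and -0.28 to 0.09, -0.03 and 0.02, and the other 2 were at 0.13 and 0.08 (adjusted p = 0.344 and 0.758). The call of 215075_s_at was lost without myocilin array 1 (0.34, adjusted p = 0.0558). The 50 nearest genes on chromosome 17 had a median difference of 0.07, and with that median subtracted GRB2 was at 0.12 (adjusted p = 0.314).

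The remaining adaptors were close to 0. GAB1, the paralogue of GAB2, was the lowest of the tier at -0.06 ± 0.06 (limma adjusted p = 0.532), with 0.13, 0.07 and 0.03 in the control line against 0.08, -0.01 and -0.03 in the myocilin line. Its 7 probe sets ran from -0.29 to 0.13 and none passed. SHC1, which couples receptors to GRB2, was at 0.05 and read -0.13 to -0.10 in the control line against -0.07 to -0.05 in the myocilin line, a step that did not overlap and did not pass (adjusted p = 0.559). PTPN11, which encodes the phosphatase SHP2, a positive regulator of RAS signalling, was at -0.04 with 6 probe sets from -0.19 to 0.05.

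Among RAS and its regulators, 0 of 7 rose and 1 fell, with 3 at an unadjusted p under 0.05 (SOS1, SOS2 and RRAS). SOS1 encodes a guanine nucleotide exchange factor that loads RAS with GTP. It read 0.08, 0.15 and 0.17 in the control line against -0.08, -0.05 and -0.11 in the myocilin line, so the lines did not overlap. SOS1 fell by 0.21 on the log2 scale, with a standard error of 0.06, a level 1.16-fold higher in the control line (limma adjusted p = 0.0314). The gene lies at chr2:38981549-39124868 (GRCh38.p14). All 5 of its probe sets lay below 0, from -0.41 to -0.06. Only 230337_at passed, at -0.41 ± 0.10 (adjusted p = 0.0244), with 0.33, 0.11 and 0.35 in the control line against -0.25, -0.20 and 0.01 in the myocilin line.

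The SOS1 call was close to the threshold. It was lost when any array but control array 1 was left out, with adjusted p = 0.0815 without control array 2, 0.0934 without control array 3, and 0.095, 0.0652 and 0.0825 without myocilin arrays 1, 2 and 3. The difference itself stayed between -0.24 and -0.19. With the median of its 50 chromosomal neighbours subtracted, which was -0.05, SOS1 was at -0.16 (adjusted p = 0.0957), and with the median of its probe sets at -0.17 (adjusted p = 0.0773). In the table without the probe sets whose suffix marks several transcripts, which keeps all 5 of SOS1, it was still at -0.21 but at adjusted p = 0.0529. Leaving out 1 array lost the call of 230337_at in 4 of 6 cases (control arrays 1 and 3, myocilin arrays 1 and 2), with differences over all 6 cases of -0.49 to -0.36.

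SOS2, the second exchange factor of this kind, was also lower in the myocilin line. It read -0.02, 0.16 and -0.02 in the control line against -0.09, -0.11 and -0.14 in the myocilin line. The lines did not overlap, but the difference of -0.16 ± 0.06 did not pass (limma adjusted p = 0.142). Of its 6 probe sets 5 lay below 0, from -0.34 to -0.05, and 1 lay at 0.17. SOS1 minus SOS2 differed between the lines by -0.06 and overlapped (two-sided exact permutation p = 0.5, where 3 arrays against 3 cannot go below 0.1).

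The RAS genes themselves went both ways and none passed. HRAS, a classical RAS gene with 1 probe set, was at -0.14 ± 0.08 (limma adjusted p = 0.273); control array 2 at -0.39 lay among the myocilin arrays (-0.41 to -0.31), and the other control arrays were at -0.13 and -0.14. RRAS, a RAS-related GTPase linked to integrin adhesion, was the highest of the tier. It read 0.10, 0.04 and 0.27 in the control line against 0.27, 0.31 and 0.53 in the myocilin line, a difference of 0.23 ± 0.09 that did not pass (adjusted p = 0.101). The highest control array and the lowest myocilin array were 0.2698 and 0.2721, barely apart. RRAS2, its relative, was at 0.12 ± 0.06 (adjusted p = 0.188), with -0.12 to -0.01 in the control line against 0.05 to 0.06 in the myocilin line and 3 probe sets from 0.08 to 0.16.

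The GTPase-activating genes, whose proteins return RAS to its inactive form, also stayed short of the threshold. NF1, which encodes neurofibromin, had 1 probe set of its own, at 0.09 ± 0.06 (limma adjusted p = 0.383). A further 9 probe sets that the annotation shares between NF1 and its pseudogene NF1P9 were no members; they ran from -0.19 to 0.40 with a median of 0.14, and 1 of them was called higher (adjusted p = 0.0149). Signals of the gene and the pseudogene cannot be told apart there. RASA2 had the widest interval of all members, -0.35 to 0.20 around a difference of -0.08, with control arrays at -0.28, 0.23 and -0.20.

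In the RAF tier 0 of 2 genes passed, and 0 were at an unadjusted p under 0.05 in the limma fit. ARAF, the X-linked RAF kinase gene, read 0.00, -0.13 and -0.13 in the control line against 0.00, -0.02 and 0.06 in the myocilin line, a difference of 0.10 ± 0.06 (adjusted p = 0.311). Its 2 probe sets differed, 230652_at at 0.22 and 201895_at at -0.02, neither past the threshold. KSR1, a RAF relative that acts mainly as a scaffold for RAF, MEK and ERK, was the closest of all members to 0, at -0.01 ± 0.06 (adjusted p = 0.911). It read 0.08, 0.05 and -0.03 in the control line against 0.00, 0.03 and 0.04 in the myocilin line, and its 4 probe sets ran from -0.08 to 0.04.

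All 3 MEK genes lay below 0 and none passed, with 1 (MAP2K5) at an unadjusted p under 0.05 in the limma fit. MAP2K5 encodes the kinase that activates the ERK-like kinase of MAPK7, a module parallel to the classical one. Its gene value was 0.09, 0.19 and 0.19 in the control line against 0.06, -0.06 and -0.05 in the myocilin line, without overlap, for a difference of -0.17 ± 0.06 (adjusted p = 0.0892). Of its 6 probe sets 2 fell. The probe set 211370_s_at fell by 0.34 on the log2 scale (SE 0.07, adjusted p = 0.0142), from 0.27, 0.30 and 0.33 to 0.00, -0.11 and -0.01, and 210482_x_at fell by 0.28 (SE 0.07, adjusted p = 0.0283), from 0.29, 0.23 and 0.24 to -0.01, -0.06 and 0.00.

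The other MAP2K5 probe sets split. Those at -0.24 and -0.23 (204756_at and 216765_at) did not pass, and 211371_at and 216435_at were at 0.00 and 0.06. The suffixes of both called probe sets mark probes that can match several transcripts or other genes. The call of 211370_s_at was lost without myocilin array 2 (-0.31, adjusted p = 0.0564). That of 210482_x_at was lost without any 1 of the 6 arrays, at differences of -0.29 to -0.26 (adjusted p = 0.0594 to 0.0904).

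MAP2K1 and MAP2K2 encode the classical MEK kinases. MAP2K1, with 1 probe set, read 0.00, 0.06 and 0.04 in the control line against 0.02, 0.06 and -0.08 in the myocilin line, a difference of -0.03 with a 95% interval of -0.17 to 0.10. MAP2K2 was at -0.13 ± 0.07 (limma adjusted p = 0.240), with 0.04 to 0.23 in the control line against -0.05 to 0.07 in the myocilin line. Its probe sets pointed both ways, -0.32 and -0.22 for 202424_at and 213490_s_at and 0.15 for 213487_at, and none passed.

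Both ERK genes lay above 0, and neither passed or reached an unadjusted p under 0.05 in the limma fit. MAPK3 encodes the kinase ERK1. Its only probe set, 212046_x_at, has a suffix that marks probes that can match several transcripts or other genes. It read -0.03, -0.07 and -0.02 in the control line against 0.03, 0.04 and 0.28 in the myocilin line. The lines did not overlap, but myocilin array 3 stood well above the others, and the difference was 0.15 ± 0.07 (adjusted p = 0.211). Without that array it was 0.07. MAPK3 lies on chromosome 16, where its 50 nearest genes had a median difference of 0.11; with that subtracted MAPK3 was at 0.04 (adjusted p = 0.759). MAPK7 was at 0.05 ± 0.06 (adjusted p = 0.618), with -0.10, -0.07 and -0.03 in the control line against -0.06, 0.02 and -0.02 in the myocilin line, and its 2 probe sets were at 0.18 and -0.08.

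Of the 8 effectors 0 passed, and 3 (RPS6KA2, RPS6KA5 and ELK3) were at an unadjusted p under 0.05 in the limma fit. RPS6KA2 encodes one of the ribosomal S6 kinases that ERK activates. It was the lowest of all members at -0.28 ± 0.10 (adjusted p = 0.0839), with 0.03, 0.29 and -0.06 in the control line against -0.17, -0.31 and -0.08 in the myocilin line. The lines did not overlap, though control array 3 and myocilin array 3 were close. Its rank as the lowest rests on 2 arrays: without control array 2 it was at -0.18 and HRAS, at -0.23, was the lowest, and without myocilin array 2 it was at -0.21 and SOS1, at -0.23, was the lowest. Its probe set 212912_at fell by 0.52 (log2, SE 0.11, adjusted p = 0.0171), from 0.10, 0.46 and 0.00 to -0.29, -0.39 and -0.34, the largest difference of any member probe set.

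The other 2 probe sets of RPS6KA2 were at -0.21 and -0.10 and did not pass. The call of 212912_at was lost without myocilin array 2 (-0.50, adjusted p = 0.0622) or myocilin array 3 (-0.52, adjusted p = 0.0548). The gene passed under 2 of 13 alternatives: without the probe sets whose suffix marks several transcripts it was at -0.37 (adjusted p = 0.0393), and with the median of its chromosome 6 neighbours subtracted, which was 0.09, it was at -0.36 (adjusted p = 0.0368).

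The other ribosomal S6 kinase genes of this class were near 0. RPS6KA1 was at 0.06 and RPS6KA3 at -0.04, with 95% intervals of -0.08 to 0.21 and -0.17 to 0.09. RPS6KA4 and RPS6KA5 encode the related mitogen- and stress-activated kinases, which phosphorylate CREB and histone H3. RPS6KA5 read 0.07, 0.04 and 0.13 in the control line against -0.09, -0.03 and -0.13 in the myocilin line, without overlap, a difference of -0.16 ± 0.06 that did not pass (limma adjusted p = 0.0879). All 3 of its probe sets lay between -0.19 and -0.13. RPS6KA4 was at 0.06, with 2 probe sets at 0.08 and 0.05.

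The ELK genes encode ETS-family factors that ERK phosphorylates at serum response elements. ELK3 was the highest of the effectors at 0.17 ± 0.08 (limma adjusted p = 0.161), with -0.09, -0.12 and 0.11 in the control line against 0.13, 0.22 and 0.07 in the myocilin line. The lines overlapped through control array 3. ELK1 was at 0.02 and ELK4 at 0.06 (adjusted p = 0.866 and 0.530), and the 3 probe sets of ELK1 ran from -0.13 to 0.11.

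Probe sets of the same gene often disagreed by as much as the lines did. Of the 77 member probe sets 2 rose and 4 fell, 7.79%, and 11.0% of all probe sets were called, 5.46% higher and 5.56% lower. The count was 3 without control array 3, 2 without myocilin array 1, 1 without myocilin array 2 and 3 without myocilin array 3. The lines did not overlap for 22 of the 77 (28.6%) and for 30.4% of all probe sets. Of the 20 members with several probe sets, 11 had them on both sides of 0. The widest span within 1 gene was 0.51, for SOS2, more than the difference of any member gene. Among the 20 there were 4 with a called probe set, and in MAP2K5 alone more than 1 was called.

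**Figure D3:**
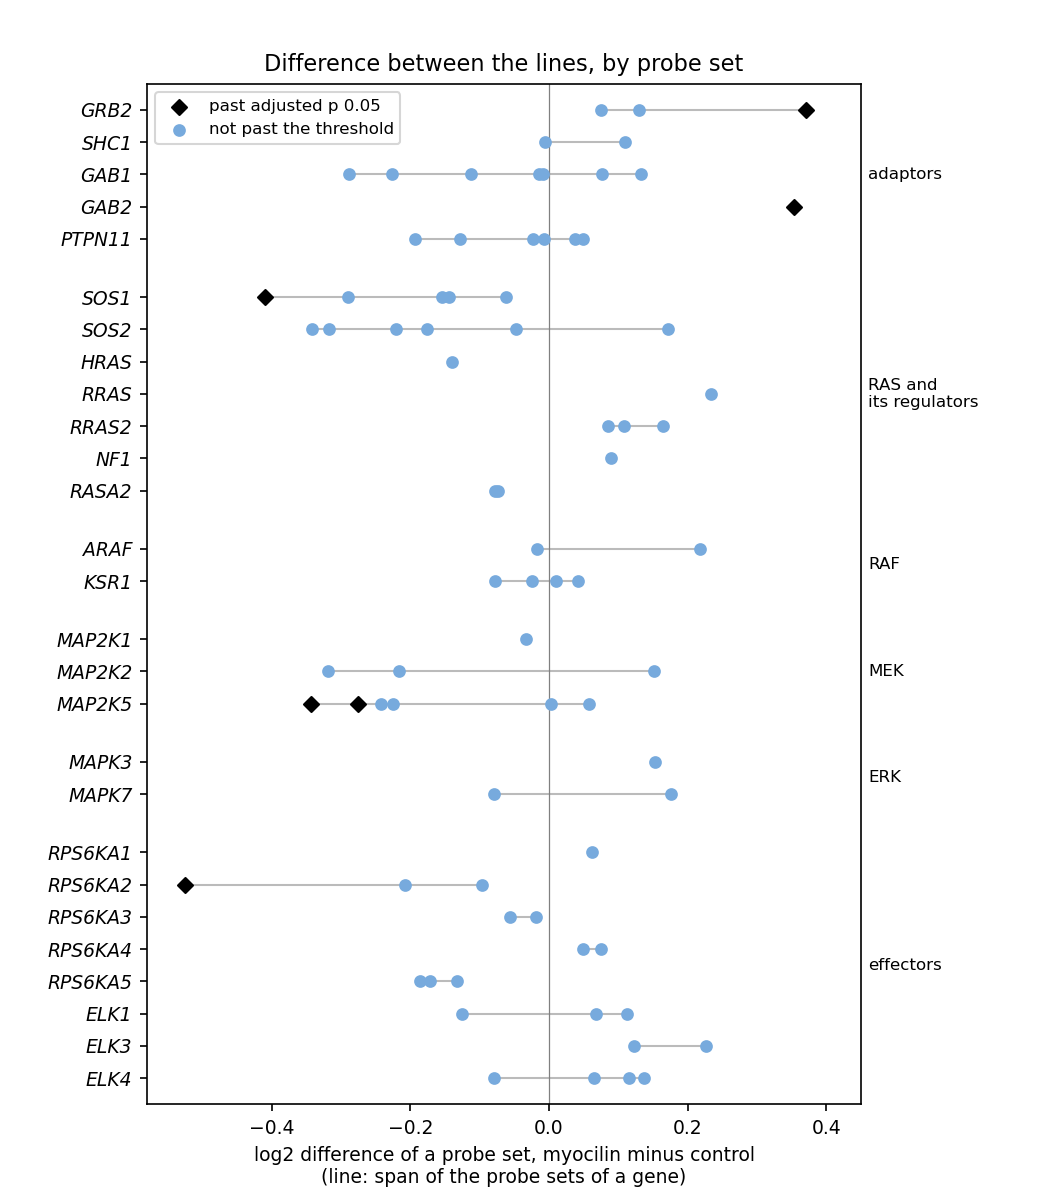
Log2 difference, myocilin minus control (x axis), of each of the 77 member probe sets, 1 row per gene; diamonds passed adjusted p 0.05 in the limma fit over all probe sets, circles did not, and grey lines span the probe sets of a gene. The 6 called probe sets belong to GRB2, GAB2, SOS1, MAP2K5 (2) and RPS6KA2. Those of GRB2, SOS1 and RPS6KA2, and 211370_s_at of MAP2K5, lie at the end of their gene's span farthest from 0.

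Paralogues were also set against each other within each array, in 9 pairs chosen after the values were seen. With 3 arrays per line the smallest two-sided exact permutation p is 0.1. GAB1 minus GAB2 was 0.19, 0.44 and 0.20 in the control line against -0.14, -0.13 and -0.15 in the myocilin line, a shift of -0.42 (exact permutation p = 0.1, adjusted p = 0.45 over the 9 pairs). RPS6KA2 minus RPS6KA3 shifted by -0.24 (p = 0.1, adjusted p = 0.45, exact permutation). These were the only 2 of the 9 pairs without overlap between the lines. The smallest possible p of 0.1 lies above the threshold for a call, so no pair could have passed. The permutation test therefore cannot decide whether any pair shifted, and the shifts are given as a description.

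Across the members, promoter sequence was compared as a description. RefSeq promoters were matched for 23 of the 27 measured members, and those of GAB1, PTPN11, RASA2 and RRAS were not. Their windows of 300 bases had a median G and C content of 72.0% (46.0% to 84.0%), against 63.3% over 14377 genes of the array with a promoter. A GC box, GGGCGG on either strand, was in 17 of 23 (73.9%) and in 60.6% of all. The ETS motif CCGGAAGT, of the kind that ELK factors bind, was in 3 (ELK4, NF1 and SHC1), 13.0% against 6.4%. The cyclic AMP element TGACGTCA was in 1 (NF1), 4.3% against 2.7%, and TATAAA in 0 of 23, against 8.6%. None of the 3 genes with the ETS motif was called.

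The rest of the pathway was described with lists of neighbouring genes, all chosen with earlier results of these data known. Over all genes 15.6% were called. Of 19 receptor tyrosine kinase genes 2 rose and 0 fell (10.5% called, median 0.02): EGFR at 0.37 and ERBB3 at 0.44. The EGFR call was lost with the median of its probe sets (0.27, limma adjusted p = 0.0639) and without the probe sets whose suffix marks several transcripts (0.21, adjusted p = 0.1282). Of 18 other adaptors 0 rose and 1 fell (5.56% called, median 0.00). That was GRB10, an adaptor that inhibits insulin receptor signalling, at -0.58 ± 0.07 (limma adjusted p = 0.000876), a larger step than that of any cascade member. Of 22 scaffolds and modulators 2 rose and 1 fell (13.6% called, median -0.03). They were CNKSR1, a scaffold for RAF, at 0.39, SHOC2, which helps to activate RAF, at 0.24, and LAMTOR3, a scaffold for MEK on endosomes, at -0.28. SHOC2 was lost without any 1 array except control array 2 (0.21 to 0.27) and without the probe sets whose suffix marks several transcripts. It was also lost with its neighbours' median subtracted (0.13, limma adjusted p = 0.2334). LAMTOR3 was lost without control array 2 or 3 or myocilin array 1 or 3 (-0.29 to -0.22), and with its neighbours' median subtracted.

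Of 16 measured exchange factors, GTPase-activating genes, RAS relatives and RAS effectors 5 rose and 0 fell (31.2% called, against 15.6% of all genes). The list was chosen with earlier results of these data known, so this share is not independent evidence. Of the 16, 11 lay above 0 and 5 below, with a median of 0.11. RALGDS and RGL2, both exchange factors for RAL that bind active RAS, rose by 0.50 ± 0.06 and 0.46 ± 0.06 (limma adjusted p = 0.000880 and 0.00140). MRAS, a RAS relative whose protein forms a complex with that of SHOC2, rose by 0.38 ± 0.07 (adjusted p = 0.00654). The neighbours of RALGDS on chromosome 9 had a median difference of 0.20, and RALGDS still rose with that subtracted, by 0.30. Without the probe sets whose suffix marks several transcripts, 11 genes of this list were left and 1 rose.

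Of 29 genes known to be induced by ERK or to feed back on it, 14 rose and 1 fell (51.7% called, against 15.6% of all genes, median 0.20). Smallest by p among these calls were EPHA2, an ephrin receptor, at 1.06, MYC at 0.67 and MAFF at 0.53. EPHA4 was the only call lower in the myocilin line, at -0.33 (limma adjusted p = 0.00853). The 14 genes not called included FOS at 0.07, DUSP6 at 0.10, SPRY2 at 0.07 and SPRED1 at -0.09. Nearest to the threshold among those 14 was KLF6, at 0.19 (limma adjusted p = 0.0648). This list, too, was made with results of these arrays known and is not independent evidence of its direction. Without the probe sets whose suffix marks several transcripts, 8 of 24 rose and 1 fell. Of 15 other ERK substrates 0 rose and 1, CREB1, fell, at -0.23 (6.67% called, median of the list -0.07). CREB1 was lost without control array 2 (-0.21), myocilin array 1 (-0.22) or myocilin array 3 (-0.23), and with its neighbours' median subtracted. Of 16 genes of the JNK and p38 cascades, which run parallel to ERK, 0 rose and 1 fell (6.25% called). That was MAP2K6, a kinase that activates p38, at -0.62 ± 0.07 (limma adjusted p = 0.000904).

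**Figure D4:**
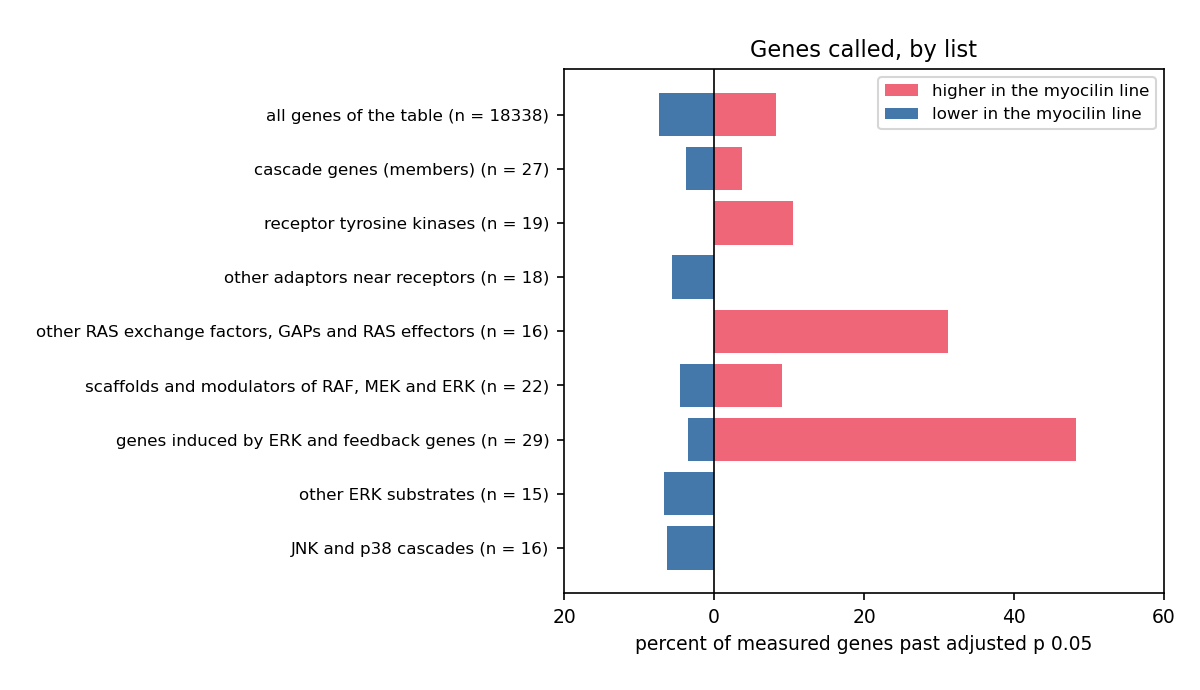
Percent of measured genes past adjusted p 0.05 (x axis) in all genes, in the cascade genes and in 7 lists of neighbouring genes, drawn to the right for genes higher and to the left for genes lower in the myocilin line; n is the number of genes measured. The cascade genes have 1 call on each side (7.41% in all), the genes induced by ERK 14 higher and 1 lower.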

How the data were processed

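The deposited table holds the authors' log2 values. How background, probe summary and scaling were handled is not given in the sources used here. The log base and the setting of each probe set to its own reference were inferred from the values, where 57.3% of probe sets are exactly 0 for 1 array or more. Genes were summarised by averaging probe sets with 1 annotated gene. Of 41751 probe sets, 37460 had 1 gene, 1728 several and 2563 none listed; Entrez identifiers gave current symbols and positions from GRCh38.p14 for 37416. Arrays were grouped by source name. Groups were compared with two-sided limma 3.58.1 fits (lmFit and eBayes, R 4.3.3) and the Benjamini-Hochberg adjustment, called at 0.05, and the scripts were tested on simulated data. Described in full were members past the threshold by gene or probe set and the highest and lowest of each tier, and from each list up to 3 called genes by p. Members and lists were chosen with earlier results of these data known. Precision is limited by 3 arrays per line.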

Additional observations from a re-analysis of the deposited data

How the results depend on the processing

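Alternatives were each array left out, quantile normalisation, a trended robust eBayes, weights per array, a table without the probe sets whose suffix marks several transcripts, the median of a gene's probe sets, median centring of arrays and subtraction of 50 chromosomal neighbours; 0 calls changed direction. A filter on dim probe sets and pseudocounts were not run, since the values are centred logs. No paired analysis was possible because the running numbers in the titles are not shared between the lines.

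Leaving out 1 array gave 1613 to 2220 called genes and 2281 to 3283 called probe sets over all, against 2866 and 4603. It gave 0 to 2 called member genes, the 0 being without myocilin array 1 (7 at an unadjusted p under 0.05 in limma), and 1 to 5 called member probe sets. It gave 1 to 2 calls in the JNK and p38 list, 0 to 1 among other ERK substrates (3 to 5 at an unadjusted p under 0.05) and 1 to 3 among scaffolds. Tier medians ran from -0.13 to 0.060 for RAS and its regulators, -0.16 to -0.077 for MEK and 0.0035 to 0.054 for effectors.

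Without the probe sets of that suffix, 1878 genes and 2695 probe sets were called over all, and 1 member gene of 23 (RPS6KA2, not SOS1) and 2 member probe sets of 55, with GAB2, SHC1, MAPK3 and ELK1 not measured. The lists then had 9 calls (induced by ERK), 1 (around RAS), 1 (receptors) and 2 (JNK and p38), and the tier medians were -0.079 for ERK, -0.084 for MEK and -0.017 for adaptors. With the median of a gene's probe sets, 1 member gene and 1 receptor gene were called and the MEK median was -0.18. With array weights the median of RAS and its regulators was -0.040. With neighbours subtracted it was -0.0066, the ERK median 0.027, and the lists had 2 (JNK and p38), 0 (other ERK substrates, 4 at an unadjusted p under 0.05 in limma) and 1 (scaffolds). Over 347 comparisons of member genes with an alternative, 9 lost a call, 2 gained one and 8 changed sign, all of these 8 for genes not called.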
